A study of Mus musculus with 22 samples.

Results

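The response of bone to mechanical loading was measured in mice with a conditional knockout (CKO) of Tlr4, by comparing the loaded right ulna with the non-loaded left ulna of the same animal. The members were chosen by the labels: disease status Tlr4 Conditional Knockout, treatment Loaded or Non-Loaded. They came to 8 of the 22 libraries of the series, from 4 mice numbered 688, 691, 693 and 698. The remaining 14 libraries are the loaded and non-loaded ulnae of 7 wildtype (WT) mice, used here for the shared estimate of spread and for the test of a difference between genotypes. The tissue was the middle part of the shaft of the ulna, a forearm bone, with the marrow and soft tissue that came with it. The labels give the genotype only as wildtype or Tlr4 Conditional Knockout, and the series title places the receptor in osteoblasts. The driver of the deletion, the cells it removes the gene from, the control alleles, the loading regime, the time of harvest, and the age and sex of the mice were not stated in the sources used here. Each group is 1 limb of each of 4 separate mice, so that both limbs of a pair share the animal.

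TLR4 is a receptor of innate immunity that binds bacterial lipopolysaccharide and some products of damaged tissue and signals through MYD88 and TICAM1 to NF-kappaB. Mechanical loading of a long bone strains osteocytes, the cells buried in the matrix, and cells on the bone surface. These cells answer within a short time with immediate-early transcription factors, and later with Wnt ligands, prostaglandins and growth factors that act on bone-forming osteoblasts. Total RNA from a piece of bone also holds RNA of marrow, vessels, nerve and attached muscle. In such bulk samples fewer cells of a type and less RNA per cell cannot be told apart.

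The 8 CKO libraries held 21999891 to 37522196 counts, and 18793 of 25471 genes entered the tests. Levels are given as CPM, counts scaled to the library size with TMM factors. Defining markers of osteocytes and osteoblasts were present in all 8 libraries, with Dmp1 at 99.6 to 529 CPM, Sost at 238 to 505 CPM and Col1a1 at 1247 to 6766 CPM. Tlr4, the targeted gene, lay at 29.3, 31.3, 25.7 and 33.8 CPM in the non-loaded ulnae of mice 688, 691, 693 and 698, and at 32.4, 30.0, 29.3 and 24.9 CPM in the loaded ulnae. The groups overlapped, and the log2 fold change was -0.04 ± 0.14 (SE; edgeR quasi-likelihood test, adjusted p = 0.919). A count over the whole gene does not show the loss of 1 exon or a loss in 1 cell type, so these values do not check the genotype labels.

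One CKO library stood against its label. Ltbp2 encodes a microfibril-associated protein outside the cell. It lay between 205 and 344 CPM in 7 CKO libraries and at 38.4 CPM in the library labelled CKO loaded 688. In the WT libraries it lay between 26.5 and 73.5 CPM, except for the library labelled WT loaded 686 at 380.2 CPM. Apart from Ltbp2, the limb difference of mouse 688 over all 18793 genes correlated negatively with those of the other mice. The Pearson correlations across genes were -0.36 with mouse 691, -0.09 with mouse 693 and -0.26 with mouse 698, against 0.19 to 0.54 among those 3 mice. These correlations are across genes of the same libraries, describe the mice only and do not check the label. The muscle share of mouse 688 also ran the other way, from 15.5% of counts in the non-loaded to 11.8% in the loaded limb. What set the sign was not tested. Results are given from the libraries as labelled, and again without mice 686 and 688.

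**Figure D1:**
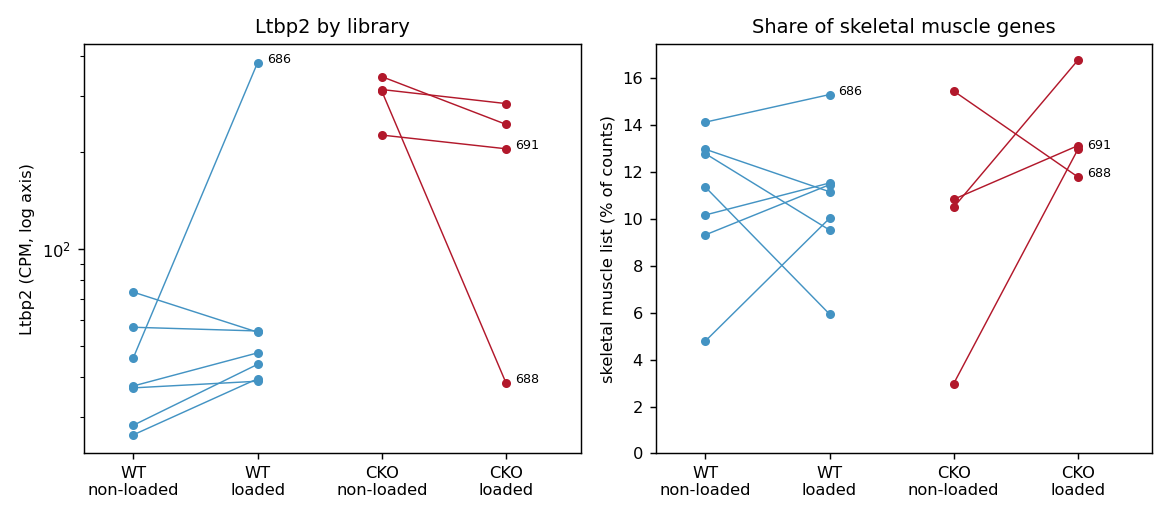
Left, Ltbp2 in CPM on a log axis in each library, with a line joining the limbs of a mouse; right, the share of counts on 22 skeletal muscle genes in percent. The libraries labelled WT loaded 686 (380.2 CPM) and CKO loaded 688 (38.4 CPM) lie apart from their own groups, 688 within the WT range and 686 above all CKO values, and CKO non-loaded 691 has the lowest muscle share at 2.98%.

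Soft tissue and marrow differed between the limbs. The skeletal muscle list, with the sarcomere gene Ttn and the creatine kinase gene Ckm, took 15.5%, 2.98%, 10.8% and 10.5% of counts in the non-loaded ulnae of mice 688, 691, 693 and 698 and 11.8%, 13.0%, 13.1% and 16.8% in the loaded ulnae. Non-loaded 691 was low in muscle and high in marrow, with 1.75% of counts on 17 neutrophil genes against 0.308% to 0.709% in the other 7 libraries. Mice 691, 693 and 698 had the higher muscle share in the loaded limb and mouse 688 in the non-loaded limb.

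In the CKO ulna 3 genes rose in the loaded limb and 0 fell (edgeR quasi-likelihood test, adjusted p under 0.05 over 18793 genes, 0.016% called). They were Fosb, Wnt1 and Egr1. At an unadjusted p under 0.05 there were 302 genes higher (1.61%) and 375 lower (2%) in the loaded limb. DESeq2 called 22 genes, 19 higher and the immunoglobulin segments Igkv9-120, Ighv1-69 and Igkv1-135 lower, and limma voom with sample weights called 18, all higher. Arc, Dmp1, Egr3, Gem, Gprc5a, Ihh, Mt1, Mt2, Phlda1 and Sema3d were called by both of these tools and not by edgeR. Rrad, Bmp2 and Has1 were called by DESeq2 and not by voom, and Ptgs2 and Osmr by voom and not by DESeq2. With muscle and marrow scores as covariates edgeR called Fosb alone, and with these scores and the animal as a block it called 4 genes, Dmp1, Fosb, Arc and Wnt1. The muscle score was the mean log2 CPM of the skeletal muscle list. The marrow score was that of the erythroid, neutrophil and B cell lists together. The edgeR count was 0 without mouse 688, 0 without mouse 691 and 0 without mice 686 and 688 together, and Fosb alone passed without mouse 693 or without mouse 698. It was 5 without WT mouse 699, and Fosb alone passed without any 1 of the 4 non-loaded CKO libraries. Egr1 alone lost its call without WT mouse 685, 686, 687, 692 or 694. Over all genes the median log2 fold change was -0.01, with 48.3% above 0 and 51.7% below.

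The promoters of Fosb, Wnt1, Mt1 and Mt2 are shown because Fosb and Wnt1 passed the test and the metallothionein genes Mt1 and Mt2, neighbours on chromosome 8, lay higher together in all 4 mice. Each line is the 250 bases before the RefSeq transcription start on GRCm38.p6, 5′ to 3′ on the strand of the gene. The windows are chr7:19310046-19310295 on the minus strand, chr15:98789607-98789856, chr8:94178839-94179088 and chr8:94172368-94172617, the last 3 on the plus strand. Capitals mark matches, on either strand, to the EGR site GCGNGGGCG, the AP-1 site TGANTCA, the metal response element cores TGCACNC and TGCGCNC, and the kappaB site.
Fosb: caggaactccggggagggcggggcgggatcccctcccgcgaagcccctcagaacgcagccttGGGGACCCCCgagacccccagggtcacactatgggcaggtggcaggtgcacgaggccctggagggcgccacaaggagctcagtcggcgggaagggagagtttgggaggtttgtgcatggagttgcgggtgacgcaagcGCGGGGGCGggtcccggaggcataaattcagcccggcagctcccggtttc
Wnt1: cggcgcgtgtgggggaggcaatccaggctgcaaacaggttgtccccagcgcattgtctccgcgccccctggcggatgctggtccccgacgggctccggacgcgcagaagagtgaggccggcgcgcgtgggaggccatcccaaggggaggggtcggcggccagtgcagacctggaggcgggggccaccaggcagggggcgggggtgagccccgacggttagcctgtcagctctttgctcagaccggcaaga
Mt1: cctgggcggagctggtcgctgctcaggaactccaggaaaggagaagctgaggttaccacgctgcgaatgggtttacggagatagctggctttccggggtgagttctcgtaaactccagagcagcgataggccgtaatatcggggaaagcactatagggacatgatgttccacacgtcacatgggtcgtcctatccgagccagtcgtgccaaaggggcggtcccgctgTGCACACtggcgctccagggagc
Mt2: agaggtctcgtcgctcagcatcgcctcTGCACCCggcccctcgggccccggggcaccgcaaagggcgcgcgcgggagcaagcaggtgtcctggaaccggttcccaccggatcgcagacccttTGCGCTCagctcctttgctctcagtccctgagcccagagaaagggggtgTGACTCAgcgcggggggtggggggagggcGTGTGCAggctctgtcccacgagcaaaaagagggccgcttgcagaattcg

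Fosb had a match to the EGR site 50 bases before the start and a kappaB match 188 bases before it. Over 12294 RefSeq promoters of the same length, the EGR site was found in 8.44%, the kappaB site in 8.85%, the AP-1 site in 4.57%, TGCACNC in 10.7% and TGCGCNC in 20.9%. Mt1 had 1 match to TGCACNC, 23 bases before the start. Mt2 had 2 matches to TGCACNC, 1 to TGCGCNC and 1 AP-1 site 79 bases before the RefSeq start. That start lay 46 bases from the GENCODE start of Mt2, so the positions depend on which start is used. The Wnt1 window held none of these letters. A match describes the letters only.

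Fosb (ENSMUSG00000003545, chromosome 7, 19302696 to 19310051, minus strand, GRCm38) encodes a FOS-family partner of the AP-1 transcription factor. Its level was 2.18, 1.3, 0.960 and 2.57 CPM in the non-loaded ulnae of mice 688, 691, 693 and 698, and 15.2, 10.8, 8.61 and 13.0 CPM in the loaded ulnae, from 28 to 416 counts a library. Every loaded value lay above every non-loaded value, as in 0.958% of all genes tested. Fosb rose by 2.77 ± 0.37 on the log2 scale (SE, edgeR adjusted p = 0.00388), and the mean CPM was 6.80 times higher. Throughout, the SE is that of the unpaired fit to all 22 libraries, not a spread over the 4 mice. With only the 8 CKO libraries the adjusted p of Fosb was 0.101 by edgeR. It passed in 28 of 34 other fits. Without mice 686 and 688 the fold change was 2.75, with an adjusted p of 0.137 by edgeR.

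Wnt1 (ENSMUSG00000022997, chromosome 15, 98789857 to 98793837, plus strand) encodes a secreted Wnt ligand that promotes bone formation. It lay at 1.05, 0.800, 1.03 and 0.667 CPM in the non-loaded limbs of the mice in the same order and at 5.38, 5.89, 13.8 and 5.85 CPM in the loaded limbs, from 20 to 451 counts. The groups did not overlap, and loaded 693 lay well above the other loaded limbs. Wnt1 rose by 3.13 ± 0.47 on the log2 scale (SE; edgeR adjusted p = 0.0118), with a mean CPM 8.71 times higher. It passed in 21 of the 34 other fits, and without mice 686 and 688 the log2 fold change was 3.36 (edgeR adjusted p = 0.137).

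Egr1 (ENSMUSG00000038418, chromosome 18, 34859823 to 34864984, plus strand) encodes a zinc-finger transcription factor of the immediate-early group. Its level was 19.5, 18.6, 25.9 and 18.9 CPM in the non-loaded limbs and 53.5, 69.6, 69.6 and 87.3 CPM in the loaded limbs. The groups did not overlap. Egr1 rose by 1.76 ± 0.29 on the log2 scale (SE; edgeR adjusted p = 0.0366). It passed in 12 of the 34 other fits, and without mice 686 and 688 the log2 fold change was 1.84 (edgeR adjusted p = 0.282).

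Blocking on the animal, 5 genes passed (0.0266%): Fosb, Egr1, Wnt1, Dmp1 and an unnamed gene model. Dmp1 (chromosome 5, 104202613 to 104214102, plus strand) encodes an acidic matrix phosphoprotein made by osteocytes. Its level was 124, 99.6, 139 and 110.2 CPM in the non-loaded limbs and 270.4, 254, 529 and 307 CPM in the loaded limbs. The loaded values were all above the non-loaded ones, and the log2 fold change was 1.53 ± 0.27 (edgeR adjusted p = 0.071), or 1.47 in the blocked fit (edgeR adjusted p = 0.0181).

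**Figure D2:**
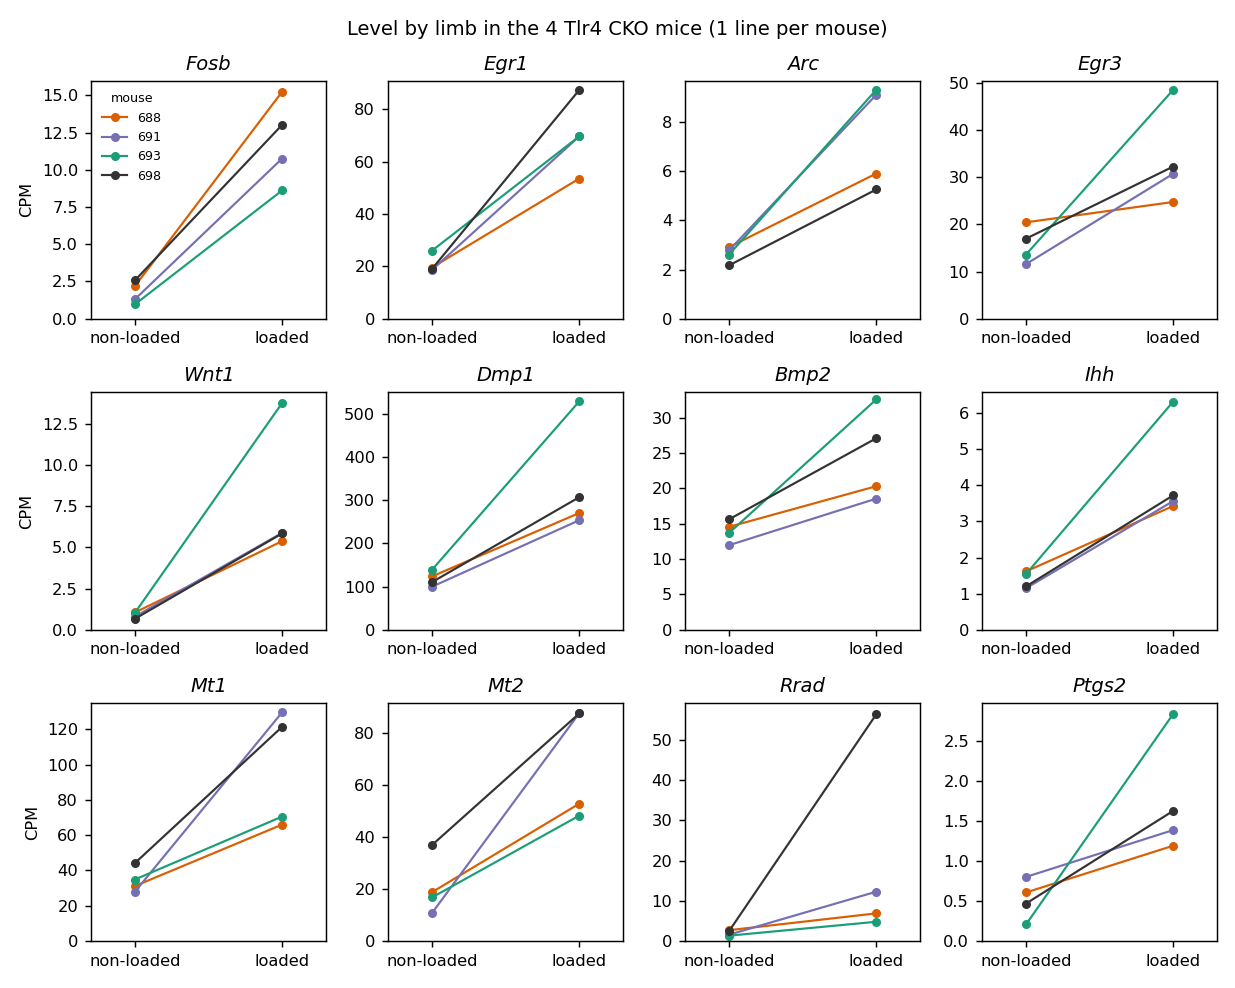
CPM of 12 genes in the non-loaded and loaded ulna, 1 line per CKO mouse, each panel on its own linear axis from 0. The loaded values of Fosb, Egr1, Wnt1 and Dmp1 lie above all non-loaded values, and loaded 698 stands apart for Rrad at 56.4 CPM.

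Of the 29 immediate-early genes tested, 2 passed the test over all genes, 25 had a log2 fold change above 0 and 15 had an unadjusted p under 0.05 in that direction. Over all genes tested these shares were 0.016%, 48.3% and 1.61%. As this and the other lists were chosen with earlier results of these data known, their counts describe the lists and test nothing. Their median was 0.50 beside -0.01 over all genes. 16 of the 29 were higher in all 4 mice, a pattern that 5.07% of all genes showed. The list mean of the limb difference was 0.34 in mouse 688, 0.95 in 691, 0.65 in 693 and 0.81 in 698. Besides Fosb and Egr1, these genes did not pass, and their values follow. Arc, an activity-regulated cytoskeletal gene, lay at 2.91, 2.78, 2.60 and 2.17 CPM in the non-loaded and 5.91, 9.11, 9.32 and 5.26 CPM in the loaded limbs, without overlap (log2 fold change 1.5 ± 0.34, edgeR adjusted p = 0.294). In the blocked fit with muscle and marrow covariates Arc passed (1.45, edgeR adjusted p = 0.0322). The zinc-finger factor gene Egr3 went from 20.4, 11.6, 13.6 and 17.0 CPM to 24.8, 30.8, 48.6 and 32.3 CPM, with the smallest gain in mouse 688. The log2 fold changes of Fos, Atf3, Nr4a3 and Junb were 1.11, 1.28, 1.04 and 0.60, and those of Myc and Klf2 were -0.01 and -0.19. Fosl1, the gene of another FOS-family partner, was listed at 0.566, 0.075, 0 and 1.17 CPM in the non-loaded and 0.476, 1.90, 0.672 and 5.48 CPM in the loaded limbs, so that its groups overlapped.

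Feedback inhibitors of ERK signalling lay mostly above 0: 12 of 14, with a median of 0.23 and none past the test. The median was 0.11 with muscle and marrow covariates, and the list mean was -0.05 in mouse 688 and 0.27, 0.31 and 0.25 in mice 691, 693 and 698. Spred1 was 0.44 ± 0.14, Spry4 0.69 ± 0.26 and Spry2 0.44 ± 0.17 on the log2 scale (SE), and all 3 encode inhibitors of receptor tyrosine kinase signalling. The 3 RGK small GTPases tested, inhibitors of voltage-gated calcium channels, all lay above 0. Rrad was at 2.67, 1.55, 1.3 and 2.40 CPM in the non-loaded and 6.86, 12.3, 4.77 and 56.4 CPM in the loaded limbs. Its groups did not overlap and its loaded values spread widely, with a log2 fold change of 3.35 ± 0.63 (edgeR adjusted p = 0.0997). Rrad is also expressed in muscle, and with muscle and marrow scores as covariates its fold change was 2.64 (edgeR adjusted p = 0.477). Gem went from 3.68, 1.60, 2.78 and 4.97 CPM to 5.53, 6.03, 8.22 and 7.70 CPM, also without overlap.

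Among the 12 Wnt ligands tested, Wnt1 was the 1 that passed, and 11 lay above 0 with a median of 0.66. Wnt10b lay at 10.7, 6.53, 11 and 10.8 CPM in the non-loaded and 14.8, 14, 27.5 and 15.1 CPM in the loaded limbs, without overlap (log2 fold change 0.87 ± 0.32, edgeR adjusted p = 0.739). Wnt7b overlapped between limbs and had a log2 fold change of 1.38 ± 0.62. The list mean was 2.27 in mouse 691, whose non-loaded limb was low in muscle, and 0.10, 0.76 and 0.53 in mice 688, 693 and 698. With muscle and marrow covariates the median of the ligands was 0.04 while the fold change of Wnt1 was 3.13. Of 12 Wnt antagonists 11 lay above 0 and none passed (median 0.29, or 0.07 with the covariates and 0.10 without mouse 691). Their list mean was 1.47 in mouse 691 and -0.31, 0.41 and 0.03 in mice 688, 693 and 698. Sost, which encodes the osteocyte Wnt inhibitor sclerostin, lay at 309.7, 257, 261 and 286 CPM in the non-loaded and 238, 334, 505 and 313 CPM in the loaded limbs. It was lower in the loaded limb of mouse 688 and higher in the other 3 mice (log2 fold change 0.32 ± 0.28, edgeR adjusted p = 0.739).

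Of 16 osteocyte genes 15 lay above 0, beside 48.3% of all genes, with a median of 0.30 and 6 higher in all 4 mice, beside 5.07% of all genes. The median was 0.48 without mouse 688. The list mean of the limb difference was 0.08, 0.49, 0.69 and 0.21 in mice 688, 691, 693 and 698. The list took 0.203% of counts in loaded 693 and 0.102%, 0.125% and 0.111% in loaded 688, 691 and 698. In the non-loaded limbs its share was 0.089% to 0.106%. Fam20c, the kinase of secreted matrix phosphoproteins, had a log2 fold change of 0.64 ± 0.25, and Tnfrsf11b, which encodes the RANKL decoy osteoprotegerin, 0.66 ± 0.31. Neither passed. The osteoblast matrix list gave a median of 0.05, with 16 of 26 genes above 0, none past the test and none at an unadjusted p under 0.05. Its median was -0.04 with the covariates and -0.05 without mouse 688. Col1a1, the collagen I chain gene, lay at 4378, 1818, 6764 and 3313 CPM in the non-loaded and 6766, 1247, 4738 and 4002 CPM in the loaded limbs. Its groups overlapped fully, and the sign of its fold change (0.04 ± 0.66) turned under 13 of 34 other fits. Bglap, the osteocalcin gene, lay at 74.6, 35.6, 144.5 and 73.8 CPM in the non-loaded and 210.5, 30.6, 94.6 and 85.0 CPM in the loaded limbs. The high loaded value was that of mouse 688, and without mice 686 and 688 the log2 fold change was -0.27 in place of 0.36. Postn, a matricellular gene of the periosteum, lay at 176, 67.2, 181 and 169.9 CPM in the non-loaded and 156, 90.9, 268 and 144 CPM in the loaded limbs, higher in 2 mice and lower in 2.

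Genes of growth factors, secreted signals and prostaglandin synthesis among the 25 of smallest p did not pass in edgeR. Bmp2, a bone morphogenetic protein gene, lay at 14.5, 12, 13.7 and 15.6 CPM in the non-loaded and 20.3, 18.5, 32.6 and 27.1 CPM in the loaded limbs, without overlap. Its log2 fold change was 0.82 ± 0.19 (edgeR adjusted p = 0.294). Ihh, the hedgehog ligand gene of growth cartilage and bone, went from 1.62, 1.15, 1.54 and 1.2 CPM to 3.43, 3.57, 6.32 and 3.72 CPM. The limbs did not overlap for Ihh either, at a log2 fold change of 1.63 ± 0.32 (edgeR adjusted p = 0.113). Of 27 BMP, TGF-beta and IGF genes 19 lay above 0 with a median of 0.17, and none passed. That median was 0.02 with muscle and marrow covariates and 0.09 without mouse 691, and the list mean in mouse 688 was -0.03. Ptgs2, the inducible cyclooxygenase gene of prostaglandin synthesis, went from 0.606, 0.800, 0.206 and 0.467 CPM to 1.19, 1.39, 2.84 and 1.63 CPM, without overlap (1.74 ± 0.43, edgeR adjusted p = 0.494).

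Other genes among the 25 of smallest p did not pass and had no overlap between the limbs. Gprc5a, an orphan receptor gene, lay at 0.727, 0.350, 0.411 and 0.567 CPM in the non-loaded and 1.43, 2.41, 1.99 and 2.79 CPM in the loaded limbs (log2 fold change 2.08 ± 0.41, edgeR adjusted p = 0.113). Has1, which makes hyaluronan, was at 1.87 ± 0.44 and Sema3d, a secreted guidance gene, at 1.03 ± 0.24. Sema3d overlaps the model Gm42909, which was at 1.74. The oncostatin M receptor gene Osmr was at 0.70 ± 0.19 and Phlda1 at 0.72 ± 0.14. Myh15, a myosin heavy chain gene, was at 1.44 ± 0.40 and Sertad1 at 0.50 ± 0.14. Without overlap, all 7 were by necessity higher in the loaded limb of each mouse. Loaded values lay above the non-loaded ones without overlap in 0.958% of all genes, and these genes were picked by small p.

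Both metallothionein genes, whose proteins bind zinc and copper, were higher in each loaded limb without passing in edgeR. Mt1 lay at 31.1, 27.9, 34.8 and 44.1 CPM in the non-loaded and 66.0, 129.7, 70.5 and 121 CPM in the loaded limbs (log2 fold change 1.49 ± 0.31, edgeR adjusted p = 0.177). Mt2 lay at 18.7, 10.7, 16.7 and 36.8 CPM and at 52.7, 87.5, 48.1 and 87.4 CPM (1.74 ± 0.41, edgeR adjusted p = 0.367). An antisense model, Gm45774, overlaps Mt2 and had a log2 fold change of 1.64. The other 9 genes of the metallothionein and oxidative stress list were mixed: Srxn1, the sulfiredoxin gene, was at 1.01 ± 0.30 and the heme oxygenase gene Hmox1 at -0.32. With the covariates for muscle and marrow, Mt1 was at 1.19 and Mt2 at 1.28.

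**Figure D3:**
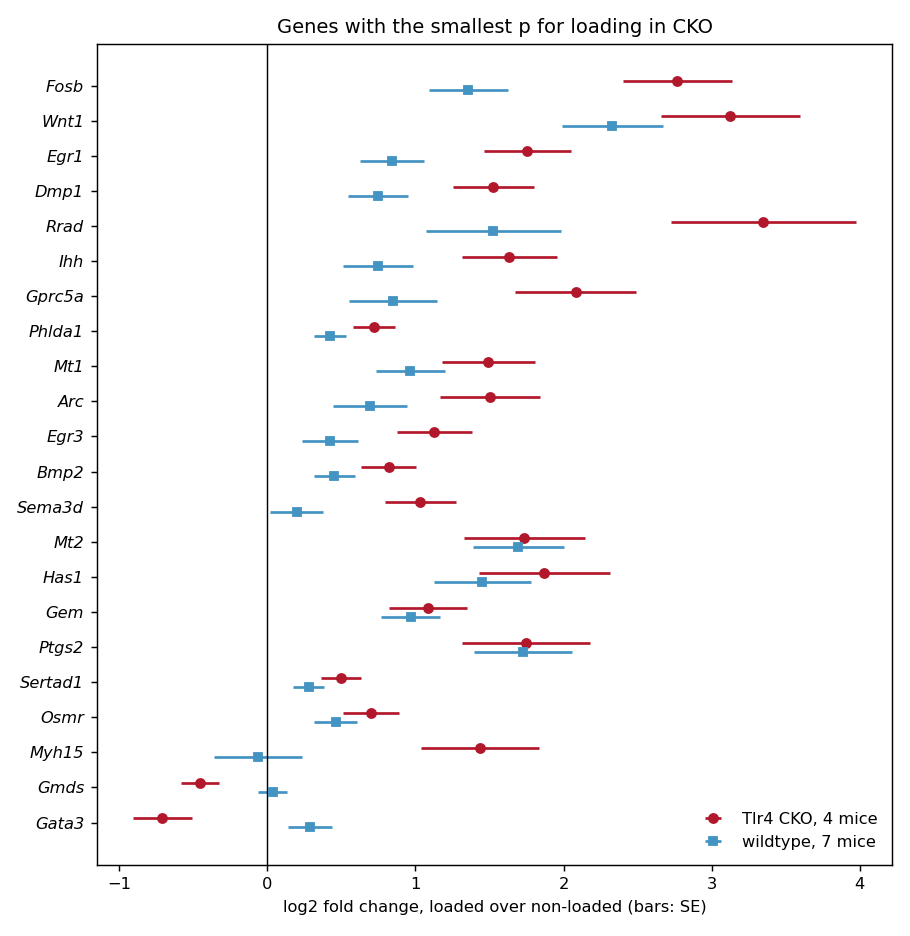
Log2 fold change of loaded over non-loaded ulna with its SE for 22 of the 25 named genes of smallest p in CKO (circles, 4 mice) and for the same genes in WT (squares, 7 mice). In CKO 20 of the 22 lie above 0, and Gmds (-0.46) and Gata3 (-0.71) lie below. Over all genes tested 48.3% lie above 0, and at an unadjusted p under 0.05 there were 302 genes higher and 375 lower. The choice left out unnamed gene models and immunoglobulin and T cell receptor segments, so the count does not give the direction of the whole response.

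Genes of the TLR4 pathway lay slightly below 0 in 22 of 27 cases, with a median of -0.12, and none passed. The median was 0.01 with muscle and marrow covariates and -0.03 without mouse 691, and the list mean was 0.11 in mouse 688 and -0.40, -0.04 and -0.22 in mice 691, 693 and 698. Ly96, the co-receptor gene, was at -0.58 and Myd88 at -0.28 on the log2 scale. Cd180, a TLR4-related receptor gene of B cells, had the smallest p of the list at -0.72 ± 0.25, and its limbs overlapped. Of 30 inflammatory target genes 12 lay above 0 and 18 below, with a median of -0.14, or 0.12 with the covariates. Cxcl1, a neutrophil chemokine gene, was at 1.91 ± 0.72 and Socs3, a gene of cytokine feedback, at 0.97 ± 0.31, while Il1a was at -1.18 ± 0.49. The limbs overlapped for each of these genes, and Cxcl1 had only 2 to 62 counts a library. The mean of the list was 0.44 and 0.22 in mice 688 and 693 and -0.11 and -0.24 in mice 691 and 698.

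Marrow and muscle lists differed in sign between mice. All 29 cell cycle genes lay below 0 with a median of -0.52, yet none was lower in all 4 mice: the list mean was 0.96 in mouse 688 and -1.34, -0.22 and -0.85 in mice 691, 693 and 698. All 22 skeletal muscle genes and all 30 nuclear oxidative phosphorylation genes lay above 0, with medians of 0.54 and 0.37, and their means in mouse 688 were -0.38 and -0.39. The muscle list mean was 2.51, 0.19 and 0.86 in mice 691, 693 and 698. The muscle score was made from the muscle list itself, so a muscle median near 0 with the covariates was fixed in advance. For lists that rise and fall with muscle or marrow, a smaller median with the covariates is likewise no separate result. With these scores as covariates the medians were 0.12 for cell cycle, -0.02 for muscle, -0.03 for oxidative phosphorylation and 0.34 for the immediate-early genes. Without mice 686 and 688 the medians were -0.89, 0.93, 0.65 and 0.51 in the same order.

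T and NK cell genes and osteoclast genes had fold changes mostly below 0, and so had other marrow lists. B cell (17 of 17, median -0.55), neutrophil (17 of 17, -0.55) and megakaryocyte genes (12 of 12, -0.65) lay below 0. So did most erythroid (15 of 16, -0.45) and monocyte and macrophage genes (14 of 15, -0.47), and none of these passed. In mouse 688 the means of these marrow lists were above 0, from 0.04 for B cells to 1.56 for erythroid genes. All 17 T and NK cell genes were below 0 with a median of -0.69, none passed, and 12 of the 17 were lower in all 4 mice, as 5.93% of all genes were. Cd8a, the gene of a T cell co-receptor, lay at 3.11, 3.75, 2.74 and 1.60 CPM in the non-loaded and 1.10, 1.5, 1.74 and 0.595 CPM in the loaded limbs, with overlap. Cd3e, which marks T cells, was at 1.31 to 4.60 CPM over the 8 libraries, so that these genes were at low levels. The part of marrow content in this was not tested, and with the muscle and marrow covariates the median was -0.30. Of 15 osteoclast genes 14 lay below 0 (median -0.61, or -0.17 with the covariates and -0.26 without mouse 691), among them Ctsk, the cathepsin K gene, at 74.5, 229.9, 152.5 and 110.5 CPM in the non-loaded and 72.6, 74.9, 130.5 and 66.5 CPM in the loaded limbs. The highest Ctsk value was that of non-loaded 691, which was also highest in neutrophil genes among the 8 libraries. The osteoclast list mean was 0.09, -1.12, -0.05 and -0.77 in mice 688, 691, 693 and 698. The part of marrow content in the osteoclast values was not tested either.

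**Figure D4:**
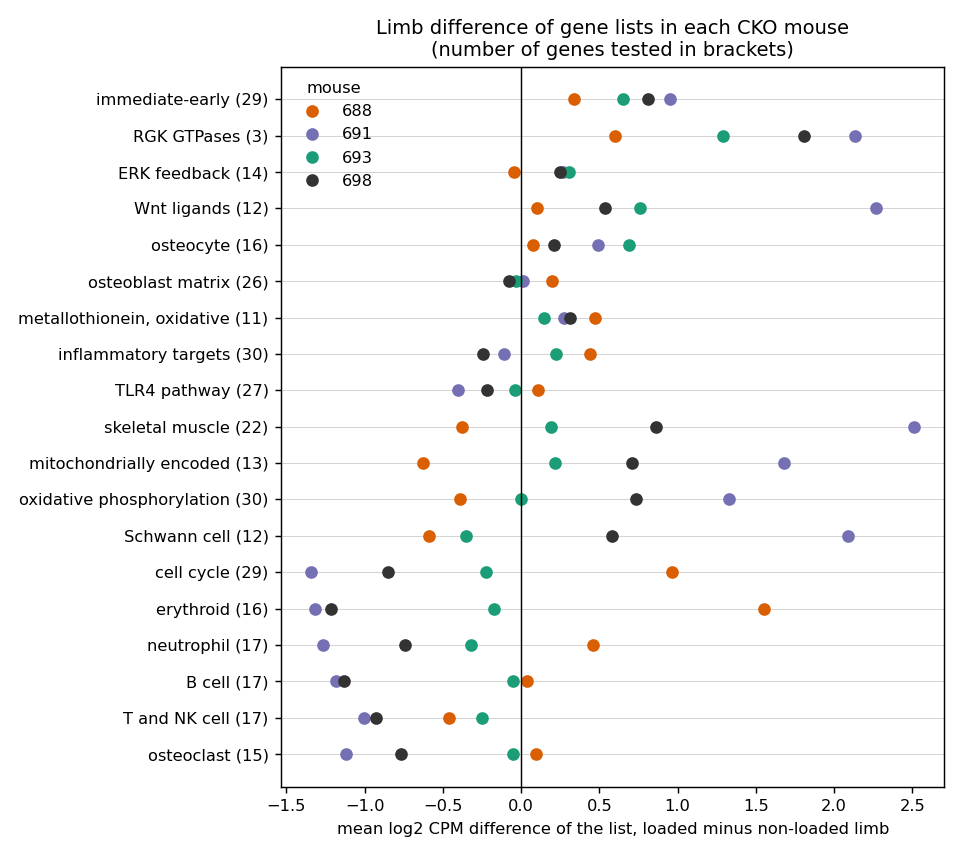
Mean log2 CPM difference between the loaded and the non-loaded limb over the genes of each list, 1 point per CKO mouse. Immediate-early genes lie above 0 in all 4 mice (0.34 to 0.95), T and NK cell genes below 0 in all 4, and muscle, cell cycle and erythroid genes have opposite signs in mouse 688 and mouse 691.

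Further lists held no gene past the test. Heat shock genes lay above 0 in 12 of 15 cases (median 0.31), with the chaperone gene Hspa1a at 9.74, 3.23, 8.23 and 10.9 CPM in the non-loaded and 12.8, 17.0, 14.4 and 22.5 CPM in the loaded limbs, without overlap. The covariates for muscle and marrow brought that median to 0.11. YAP target genes lay above 0 in 10 of 13 cases (median 0.40, or 0.05 with the covariates), and circadian genes in 16 of 17 (0.22, or 0.01). Of 21 interferon-stimulated genes 20 lay below 0 (median -0.40, or -0.03 with the covariates), with a list mean of 0.28 in mouse 688 and -0.79, -0.18 and -0.51 in mice 691, 693 and 698. The medians of the immediate-early, RGK and osteocyte lists with the covariates were 0.34, 0.83 and 0.29.

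Gata3 and Gmds were the 2 genes below 0 among the 22 of smallest p described here. That choice left out unnamed gene models and immunoglobulin and T cell receptor segments. Gata3 encodes a transcription factor that T cells, among other lineages, require. It lay at 1.66, 1.98, 1.51 and 1.70 CPM in the non-loaded and 0.905, 1.19, 0.825 and 1.25 CPM in the loaded limbs. The groups did not overlap, with the loaded limb below, as in 1.13% of all genes, and the log2 fold change was -0.71 ± 0.20 (edgeR adjusted p = 0.739). Gmds, which encodes an enzyme of GDP-fucose synthesis, went from 6.22, 7.93, 6.31 and 6.94 CPM to 4.67, 4.90, 4.92 and 5.48 CPM (-0.46 ± 0.13).

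The loading response of CKO was compared with that of WT by the difference of both contrasts in the same fit. No gene passed (0% of 18793; smallest edgeR adjusted p = 0.697), and 488 genes (2.6%) had an unadjusted p under 0.05. Under DESeq2 the count was also 0, with 685 genes at an unadjusted p under 0.05, and under quality-weighted voom it was 0 with 2886 such genes. Fosb lay at 1.51, 2.55 and 3.62 CPM (lowest, median and highest of 7) in the WT non-loaded and 3.86, 5.39 and 11.3 CPM in the WT loaded ulnae. Its log2 fold change was 1.36 ± 0.27 in WT and 2.77 ± 0.37 in CKO, a difference of 1.41 ± 0.44 that missed the threshold (edgeR adjusted p = 0.697, unadjusted p = 0.00429). Wnt1 was at 2.33 ± 0.34 in WT, a difference of 0.80 ± 0.56 (edgeR adjusted p = 0.697), and Egr1 at 0.84 ± 0.22, a difference of 0.91 ± 0.36 (edgeR adjusted p = 0.697). Mt2 and Ptgs2 had differences of 0.04 ± 0.50 and 0.02 ± 0.60. Sost was at -0.45 ± 0.21 in WT and 0.32 ± 0.28 in CKO (difference 0.77 ± 0.35, edgeR adjusted p = 0.697). Among the named genes, with unnamed models and genes under 1 CPM left out, the smallest unadjusted p of the difference was that of Gata3 at 0.000622, where WT was at 0.29 ± 0.15. An adjusted p above the threshold does not show that the genotypes responded alike.

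**Figure D5:**
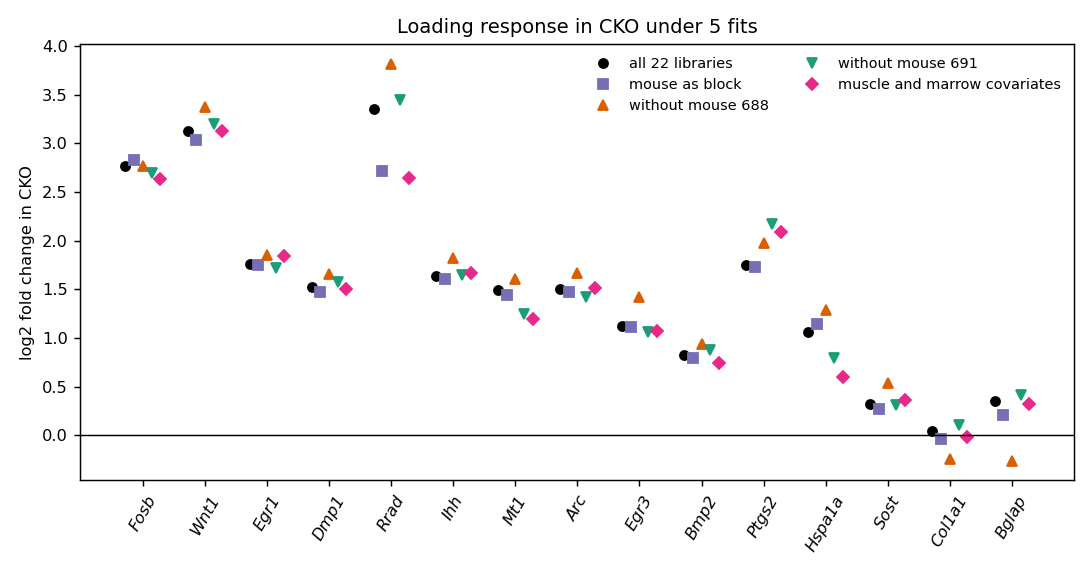
Log2 fold change of 15 genes in CKO under 5 fits: all 22 libraries, the mouse as a block, without mouse 688, without mouse 691, and with muscle and marrow scores as covariates. Fosb stays between 2.63 and 2.82 and Wnt1 between 3.03 and 3.37, Rrad ranges from 2.64 to 3.82, Bglap lies below 0 without mouse 688, and Col1a1 lies on either side of 0.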

How the data were processed

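Per the labels' protocols, bones were kept in RNAlater and pulverized in Trizol, and stranded total RNA libraries were made. The authors deposited expected counts per gene, all whole numbers; STAR, RSEM and the build GRCm38 are named in the submitters' processing notes, with versions and annotation not given in the sources used here. Coordinates are from GENCODE M21. filterByExpr kept 18793 of 25471 genes. edgeR 4.0.16 (R 4.3.3) was fitted to 4 group means over all 22 libraries with TMM scaling and robust quasi-likelihood (18 residual degrees of freedom; common biological CV 0.271), and p-values were adjusted by Benjamini-Hochberg. Log2 CPM used a prior count of 2. limma 3.58.1 and DESeq2 1.42.0 served as alternatives, as did scaling, filters, covariates, the mouse block and leaving out mice or libraries. In simulated data for CKO loading (18793 genes), 22.4% of 67 genes changed 1.5-fold, 41.8% of 67 changed 2-fold and 90.9% of 66 changed 4-fold were recovered. For the difference between genotypes these shares were 0%, 37.3% and 75.8%. Genes were drawn independently, without pairing or shared shifts of muscle and marrow, and 109 genes were called for CKO loading against 3 in the data. Adjusted p-values were thus easier to pass there, and the shares do not give the recovery in the real libraries. The members and gene lists were chosen with earlier results of these data known, and lists were given no test. Named were the called genes, the 25 of smallest p with at least 1 CPM, up to 4 members per list, 16 set genes and 5 by the difference. The restriction of list members to an unadjusted p under 0.05 was set after the data were seen. Unnamed gene models were left out of the rule; Gm42909, Gm45774, the immunoglobulin segments and the list members outside it were named after their values were seen. A mouse number joins the left and right limb of 1 animal, which makes the design paired; deviations from the group means correlated between limbs at -0.144, 0.0926, 0.0833 and 0.415 in mice 688, 691, 693 and 698. No libraries within a CKO group were alike (chi-square per gene 25.3 to 501 over 12 pairs). Promoters of 14 of the 25 genes of smallest p were found in the RefSeq table. A few genes chosen in this way are not reported here.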

Additional observations from a re-analysis of the deposited data

Results flagged for a closer look

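In groups of 4 libraries, a sample was set apart when its gap to the nearest value exceeded Dixon's 95% critical share of the group's range. This held in 8 of 68 groups examined. Chance gives about 5% for independent groups of normally distributed values. The groups here are CPM values from the same libraries, of genes chosen by p or set in advance, so the count is not a test against that share. Loaded 693 was set apart for Wnt1 at 13.8 CPM, for Ihh at 6.32 CPM and for Wnt10b at 27.5 CPM, high in each. Non-loaded 693 was high for Egr1 at 25.9 CPM. Loaded 698 was high for Rrad at 56.4 CPM. Non-loaded 691, the library with the lowest muscle share, was low for Sema3d at 13.5 CPM, for Wnt10b at 6.53 CPM and for Postn at 67.2 CPM.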

How the results depend on the processing

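The count of 3 called genes was 5 with the mouse as a block, 22 by DESeq2 (19 higher, 3 lower), 18 by limma voom with quality weights, 1 with muscle and marrow covariates and 4 (without Egr1) with these covariates and the block. It was 0 with only the 8 CKO libraries, with or without the block, and 0 without mice 686 and 688, with or without the block. This last fit with the block was chosen after seeing the data. All 3 genes were among those called by the block, DESeq2 and voom fits. Leaving out 1 mouse or 1 library gave 0 to 5 genes: 0 without mouse 688 or 691, 1 (Fosb) without 693 or 698, 5 without WT mouse 699, and 1 without any 1 non-loaded CKO library. Other scaling, filters and robust=FALSE gave 3. The difference between genotypes gave 0 in every fit run. Of the 77 named genes 4 changed sign in some fit. Without mice 686 and 688, Bglap was at -0.27 and Col1a1 at -0.24, and with the mouse block as well at -0.20 and -0.26. With voom quality weights Bglap was at -0.73, Col1a1 at -0.86, Postn at -0.20 and Tlr4 at 0.087. Col1a1 was at -0.040 with the block, -0.031 with the block in CKO alone, -0.021 with the mouse as a random block and -0.016 with covariates. Leaving out 1 mouse or library gave both signs for Bglap (-0.26 to 0.82), Postn (-0.19 to 0.35), Tlr4 (-0.11 to 0.097) and Col1a1 (-0.29 to 0.40). The cause was not tested. Low counts limit Ptgs2, with 6 to 93 counts a CKO library, and other genes as well. Among them were Cxcl1 (2 to 62), Wnt7b (1 to 115), Fosl1 (0 to 175), Has1 (8 to 57), Myh15 (11 to 73) and Gprc5a (12 to 89).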
